A study of Mus musculus with 6 samples.

Results

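The genes of hepatic gluconeogenesis and of the glucagon signal that controls it were followed here as 10 genes taken by symbol, among 55401 genes in the count table of mouse liver RNA sequencing. They are the enzymes and transporter Pcx, Pck1, Pck2, Fbp1, G6pc and Slc37a4, the glucagon receptor Gcgr, and the regulators Crtc2, Sik1 and Creb3l3. All 10 were found, and all 10 passed the filter on low counts that left 17394 genes for testing. Poly(A) RNA came from fresh liver of C57BL/6 mice, with 3 libraries labelled HFCF, fed a diet rich in fat and cholesterol with fructose, and 3 labelled OP-treated, OP standing for okra polysaccharide in the title of the series. The labels do not name the diet of the OP mice, the dose or length of treatment, or age, and the comparison holds no group on a standard diet. Nor do they tell whether each sample is its own animal, and every p-value therefore rests on the spread among these libraries, part of which may be technical. All differences are given as OP relative to HFCF.

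Gluconeogenesis makes glucose from lactate, amino acids and glycerol during fasting, and the liver is its main site. It largely runs glycolysis backwards, except at the irreversible steps, where separate enzymes carry carbon from pyruvate to phosphoenolpyruvate, remove a phosphate from fructose bisphosphate and release free glucose in the endoplasmic reticulum. Glucagon acts on its receptor to raise cAMP and activate protein kinase A, which acts on the transcription factor CREB and lets the coactivator CRTC2 enter the nucleus. Insulin opposes this signal, and salt-inducible kinases keep CRTC2 in the cytoplasm.

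The promoters of Pck1 and G6pc are shown because these are the textbook cAMP-responsive genes of the pathway and both had lower levels in every OP library. Each sequence is the 250 bases before the gene's start in the RefSeq promoter table of build GRCm38.p6, on the plus strand, at chr2:173152823-173153072 for Pck1 and chr11:101367466-101367715 for G6pc. Capitals mark the core TGACG of the cAMP response element, here on the other strand, in Pck1, with its first base at position -90 from the start, and the palindrome TTACGTAA in G6pc, with its first base at -162.
Pck1: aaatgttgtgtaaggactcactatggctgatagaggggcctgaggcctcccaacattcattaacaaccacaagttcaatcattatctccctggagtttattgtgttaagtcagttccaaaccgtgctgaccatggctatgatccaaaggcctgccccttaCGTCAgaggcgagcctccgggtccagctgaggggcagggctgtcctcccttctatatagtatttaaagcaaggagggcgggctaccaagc
G6pc: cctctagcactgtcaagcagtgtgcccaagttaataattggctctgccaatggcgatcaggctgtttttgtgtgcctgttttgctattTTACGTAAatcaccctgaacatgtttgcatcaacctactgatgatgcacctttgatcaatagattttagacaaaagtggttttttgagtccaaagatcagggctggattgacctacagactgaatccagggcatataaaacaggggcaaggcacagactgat
The table held promoters of 8 of the 10 genes, 12 promoters in all. The core TGACG, searched on both strands, occurred in promoters of Pck1, Slc37a4 and Creb3l3, and in 17.8% of all 32851 promoters of the table. The full element TGACGTCA, which contains this core, and the FOXO motif GTAAACA, also searched on both strands, were found in none of the 12, against 1.55% and 3.17% of all promoters. Only these exact letters were searched, and variants of the FOXO motif were not. TTACGTAA, a motif chosen after the promoters had been read, was found in 0.113% of all promoters. These matches describe the letters and are no measure of binding.

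Of the 10 genes, 1 fell in OP and 0 rose by the quasi-likelihood test of edgeR with an adjusted p threshold of 0.05, beside 3.47% of all tested genes that fell and 3.26% that rose. The gene that fell was Sik1. A further 5 genes, Pck1, Pck2, G6pc, Slc37a4 and Crtc2, had lower values in every OP library than in any HFCF library without passing the adjusted test. With Sik1 that makes 6 of 10 whose groups did not overlap in this direction, which held for 15.4% of all tested genes. DESeq2, run as an alternative, called these 6 genes lower, beside 7.86% of the genes it tested. No gene of the 10 was higher at an unadjusted p under 0.05, and DESeq2 and limma-voom also called 0 higher. The median log2 fold change of the 10 genes was -0.60, against 0.019 over all tested genes.

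**Figure D1:**
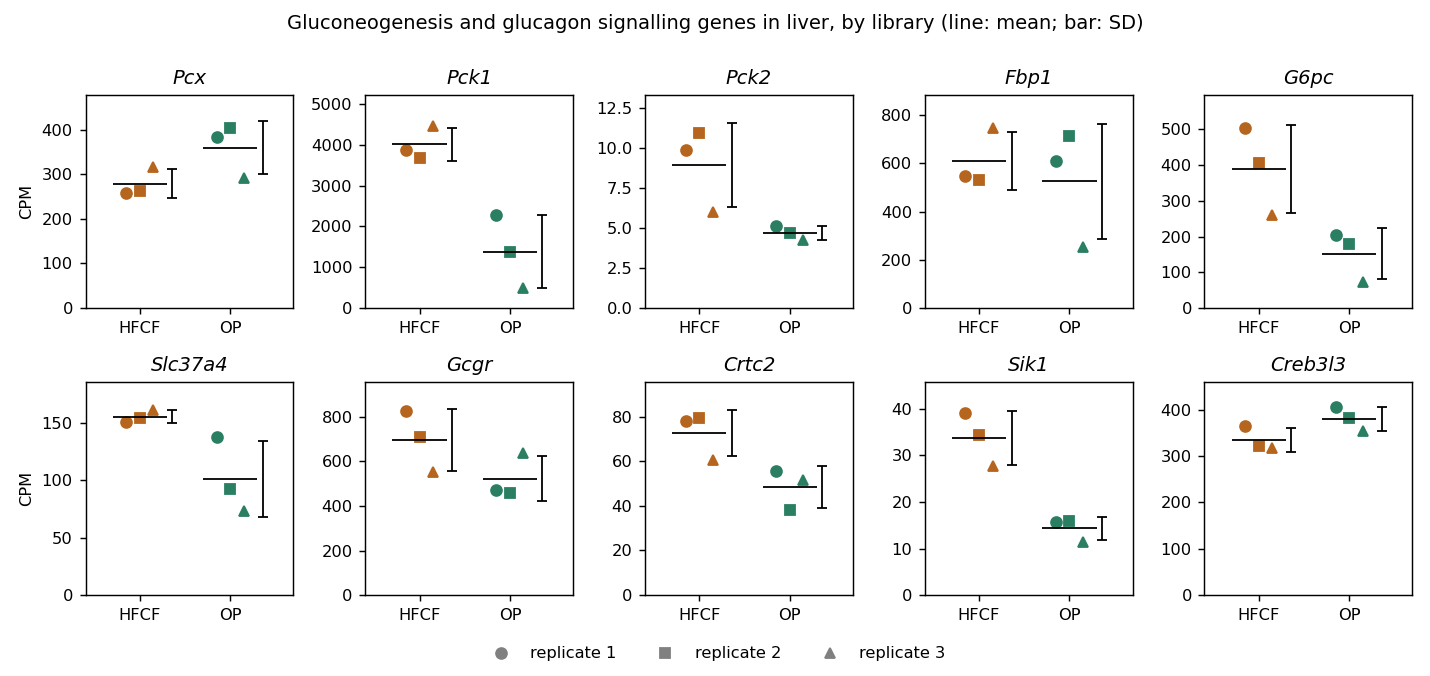
Level of each of the 10 genes in CPM in the 3 HFCF and 3 OP libraries, with 1 point per library, a line at the mean of the group and a bar for the SD. For Pck1, Pck2, G6pc, Slc37a4, Sik1 and Crtc2 every OP point lies below every HFCF point, while the groups overlap for Fbp1, Pcx and Gcgr, and for Creb3l3 the OP points overlap the HFCF range only at its top.

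Pcx encodes pyruvate carboxylase, which makes oxaloacetate from pyruvate in mitochondria and so opens the pathway. It was measured at 257, 262 and 317 CPM (counts scaled to the TMM-adjusted size of the library) in the 3 HFCF libraries, replicates 1 to 3, and at 383, 403 and 292 CPM in the 3 OP libraries. OP replicate 3 lay inside the HFCF range and the other OP libraries above it. This gave a log2 fold change of 0.37 ± 0.17 (SE), with an adjusted p of 0.224.

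Pck1, the cytosolic phosphoenolpyruvate carboxykinase, turns oxaloacetate into phosphoenolpyruvate and is a strongly fasting-induced liver gene. Its level was 3876, 3679 and 4469 CPM in HFCF and 2274, 1374 and 502 CPM in OP, with means of 4008 ± 411 CPM and 1383 ± 886 CPM (SD, n = 3). Every OP library lay below every HFCF library, and the OP libraries spread over a 4.53-fold range where the HFCF libraries spread over 1.21-fold. The log2 fold change of -1.53 ± 0.46 (SE) had an adjusted p of 0.0792. Without OP replicate 3, the lowest library, the difference was smaller, -1.13, and passed the test with an adjusted p of 0.0408. DESeq2 also called Pck1 lower, with an adjusted p of 0.0328. Those were 2 of 18 alternatives that called it, and the other left-out libraries gave adjusted p values of 0.0717 to 0.225.

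Pck2 is the mitochondrial form of the same enzyme and a known target of the amino acid stress response. It stood at 9.91, 10.96 and 5.99 CPM in HFCF and 5.17, 4.69 and 4.27 CPM in OP, from 205 to 527 counts per library. The groups did not overlap, but the lowest HFCF library, replicate 3, came close to the highest OP library. Its log2 fold change was -0.93 ± 0.25 (SE), with an adjusted p of 0.0636, and without HFCF replicate 3 it was -1.15, with an adjusted p of 0.0253. In all, 4 of 18 alternatives called Pck2, 1 of them among the 6 fits with a library left out. The gene shares 53 exon bases with the antisense gene Gm10876 in the GENCODE M21 annotation, and Gm10876 had 0 counts in all 6 libraries. No other gene of the 10 shares exon bases with another gene there. The cytosolic form exceeded the mitochondrial form in every library, by 584 to 1296 times in HFCF and 205 to 765 times in OP on CPM per kilobase of transcript.

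Fbp1 encodes the liver fructose bisphosphatase, the step that opposes phosphofructokinase. It was at 549, 531 and 748 CPM in HFCF and at 608, 712 and 255 CPM in OP. OP replicates 1 and 2 lay within the HFCF range and OP replicate 3 below it. The difference on the log2 scale was -0.22 ± 0.34 (SE), with an adjusted p of 0.746, and it was 0.12 without OP replicate 3, so its direction rested on that library.

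G6pc is the catalytic subunit of the glucose phosphatase of the endoplasmic reticulum, the last step of glucose release. Values were 503, 404 and 260 CPM in HFCF and 205, 179 and 73.1 CPM in OP, or 389 ± 122 CPM and 153 ± 70.0 CPM on average (SD, n = 3). Each OP library lay below each HFCF library, and both groups spread widely. The log2 fold change of -1.35 ± 0.38 (SE) had an adjusted p of 0.0709. DESeq2 called the gene lower with an adjusted p of 0.000353, and so did edgeR under a stricter filter of 1 CPM in 3 libraries, with an adjusted p of 0.0499. In all, 4 of 18 alternatives called G6pc, 0 of them among the 6 fits with a library left out, and its adjusted p ran from 0.000353 to 0.326.

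Slc37a4 is the transporter that brings glucose phosphate to that phosphatase. In HFCF it was nearly constant, at 151, 154 and 161 CPM, and in OP it was 137, 92.8 and 73.3 CPM. The groups did not overlap, and the OP libraries spread over 1.87-fold against 1.07-fold in HFCF. Its log2 fold change was -0.62 ± 0.22 (SE), with an adjusted p of 0.124 in edgeR and 0.0346 in DESeq2, the only alternative of 18 that called it.

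Gcgr, the glucagon receptor, is a G protein-coupled receptor expressed mainly in hepatocytes. It was at 827, 709 and 550 CPM in HFCF and at 472, 457 and 637 CPM in OP. OP replicate 3, the lowest OP library for most of the enzymes, was here the highest and lay within the HFCF range. The difference on the log2 scale was -0.41 ± 0.20 (SE), with an adjusted p of 0.250.

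Crtc2 carries the cAMP signal to CREB at gluconeogenic promoters. It was at 78.2, 79.2 and 60.5 CPM in HFCF and at 55.6, 37.9 and 51.8 CPM in OP, so that the groups did not overlap. The log2 fold change of -0.58 ± 0.19 (SE) had an adjusted p of 0.0954 in edgeR and of 0.0282 in DESeq2, again the only alternative of 18 that called it.

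Sik1, a salt-inducible kinase, is itself induced by cAMP through CREB and phosphorylates CRTC2, which limits the signal. It fell in OP, from 39.2, 34.4 and 27.7 CPM in the HFCF libraries to 15.7, 15.9 and 11.5 CPM in the OP libraries, from 553 to 1890 counts per library. All OP libraries lay well below the lowest HFCF library, with means of 33.8 ± 5.76 CPM in HFCF and 14.4 ± 2.48 CPM in OP (SD, n = 3). The libraries spread over a 1.41-fold range in HFCF and 1.38-fold in OP. The log2 fold change was -1.23 ± 0.19 (SE), with an adjusted p of 0.0120. This call was lost without HFCF replicate 1 (-1.11, adjusted p = 0.0811), without HFCF replicate 2 (-1.25, adjusted p = 0.0729) or without OP replicate 1 (-1.30, adjusted p = 0.0529). Over the 18 alternatives tried at the same threshold its adjusted p ran from 6.24e-07 to 0.124, and 14 of them called it.

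Creb3l3 encodes CREBH, a liver transcription factor held in the endoplasmic reticulum membrane until it is cleaved, which takes part in fasting gene expression and lipid metabolism. It was at 365, 323 and 317 CPM in HFCF and at 405, 383 and 354 CPM in OP, the narrowest spread within OP of the 10 genes. The lowest OP library lay below the highest HFCF library. Its log2 fold change was 0.19 ± 0.14 (SE), with an adjusted p of 0.446.

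**Figure D2:**
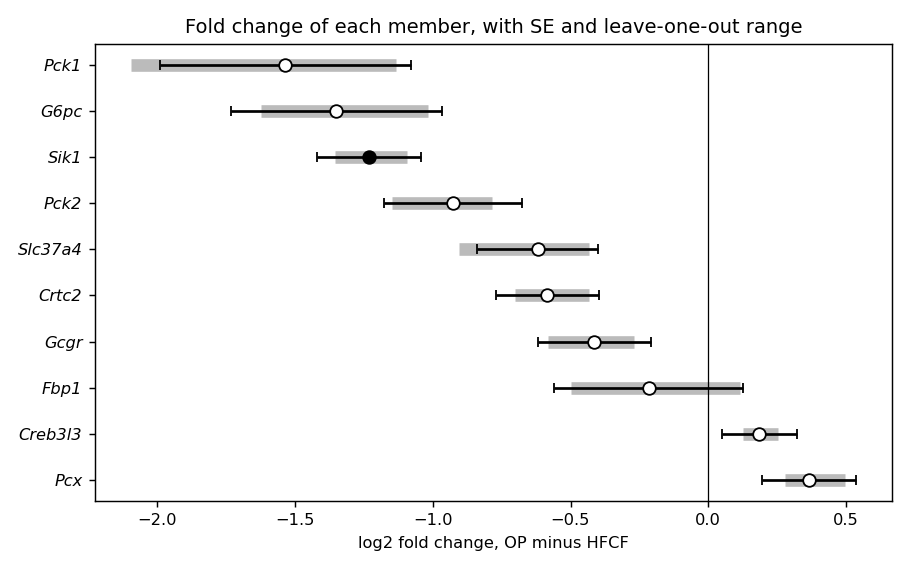
Log2 fold change of each of the 10 genes, OP relative to HFCF, with SE as whiskers, and a grey bar for the range of values when each library was left out in turn. The filled point is Sik1, the gene that passed the edgeR test, and the grey bar of Fbp1 crosses 0.

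In 8 of the 10 genes, all but Gcgr and Crtc2, OP replicate 3 was the lowest of the OP libraries. Mitochondrially encoded mRNA took 14.4% of counts in that library, against 7.48% and 6.08% in OP replicates 1 and 2 and 22.0%, 18.8% and 14.1% in HFCF replicates 1 to 3. With this share as a covariate in the fit, Sik1 was at -1.26 with an adjusted p of 0.124, Pck1 at -2.89 with an adjusted p of 0.104, and Fbp1 at -1.44. Under the same fit Gcgr changed sign to 0.18 and Pcx to -0.08, and 0 of the 10 genes were called. Over all 17394 tested genes this fit called 97 lower (0.558%) and 110 higher, against 603 (3.47%) and 567 without the covariate. The loss of calls was therefore not particular to the 10 genes. The share differs between the groups, and its part in these results was not tested beyond this fit.

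Per kilobase of transcript, which allows genes to be compared, Pck1 had the highest level of the 10 in HFCF at 1506 ± 154 CPM per kilobase (SD, n = 3). Fbp1 followed at 412 ± 81.2 and Gcgr at 355 ± 70.9, with overlapping libraries. G6pc at 161 ± 50.6 and Creb3l3 at 146 ± 11.5 also overlapped, as did Pcx at 67.2 ± 7.96 and Slc37a4 at 66.3 ± 2.31. Crtc2 at 26.4 ± 3.83, Sik1 at 7.47 ± 1.28 and Pck2 at 1.94 ± 0.566 were the lowest and did not overlap with each other. In OP the order changed in the middle. The range of Pck1 at 520 ± 333 now overlapped with those of Fbp1 at 355 ± 162 and Gcgr at 267 ± 51.1. Within each OP library Pck1 still exceeded Fbp1, by little in replicates 2 and 3 (516 against 481, and 189 against 172). G6pc at 63.2 ± 29.0 lay below Creb3l3 at 166 ± 11.2 and Pcx at 86.6 ± 14.3. Its highest library overlapped with the lowest of Pcx, but within each OP library G6pc was below Pcx. Slc37a4 followed at 43.1 ± 14.0, overlapping with G6pc, and Crtc2 at 17.6 ± 3.39, Sik1 at 3.18 ± 0.549 and Pck2 at 1.02 ± 0.0971 again stood lowest.

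At the irreversible steps other enzymes run in the direction of glycolysis. Of 9 genes listed for these opposing steps, 3 rose and 0 fell, with a median log2 fold change of 0.32. The list is mixed, since Gckr, Pdk2 and Pdk4 restrain enzymes of these steps. They were at -0.45, 0.32 and 1.48 (adjusted p = 0.156, 0.222 and 0.423 in edgeR), so the median is not that of glycolytic enzymes alone. DESeq2 and limma-voom called 0 genes of the list lower too, and 1, Gckr, was lower at an unadjusted p under 0.05. Pklr, the liver pyruvate kinase, rose from 29.7, 30.3 and 32.0 CPM in HFCF to 57.2, 52.7 and 53.2 CPM in OP, a log2 fold change of 0.83 with an adjusted p of 0.0112. The other calls were Pfkfb3, which makes the activator of phosphofructokinase, at 1.54 (adjusted p = 0.0356), and Pdha1, a subunit of pyruvate dehydrogenase, at 0.63 (adjusted p = 0.0409). All 3 calls were lost when replicate 1 of either group or HFCF replicate 2 was left out, that of Pfkfb3 also without OP replicate 3, and that of Pdha1 also without OP replicate 2.

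Set against the opposing enzyme on CPM per kilobase, Pck1 exceeded Pklr 143, 133 and 152 times in the HFCF libraries and 43.4, 28.4 and 10.3 times in the OP libraries. These ratios did not overlap between the groups, which had to follow, since Pck1 was lower and Pklr higher in every OP library than in any HFCF library. Fbp1 exceeded Pfkl, the liver phosphofructokinase, 56.3, 55.4 and 98.2 times in HFCF and 60.0, 64.9 and 35.3 times in OP, which overlap. The pairs were set out with the values of their members known, and no test was made of the ratios.

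**Figure D3:**
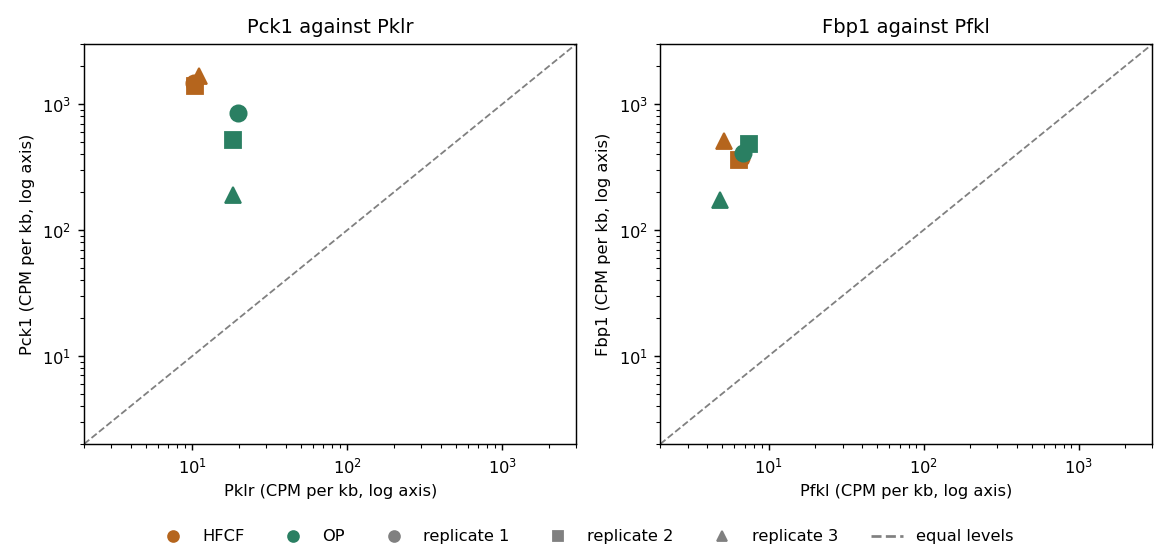
Level of a gluconeogenic enzyme against that of the glycolytic enzyme of the opposing step, in CPM per kilobase on log axes, with 1 point per library and a dashed line where the levels are equal. The OP libraries lie nearer the line than the HFCF libraries for Pck1 against Pklr, and the groups overlap for Fbp1 against Pfkl.

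The rest of the route was followed in lists chosen by function. Of 11 genes for the reversible steps that gluconeogenesis shares with glycolysis, and for the malate and aspartate exchange beside them, 0 rose and 1 fell, with a median of 0.30. The gene that fell was Got1, the cytosolic aspartate aminotransferase, from 554, 377 and 529 CPM to 90.3, 99.6 and 51.6 CPM, a log2 fold change of -2.60 ± 0.27 (SE) with an adjusted p of 0.00361. Its mitochondrial counterpart Got2 was at 0.55 with an adjusted p of 0.116. No gene of this list rose in limma-voom, 1 did in DESeq2, and 2 were higher at an unadjusted p under 0.05. Of the other copies of the phosphatases, Fbp2, the muscle form, and G6pc3, the ubiquitous form, were tested, and 0 were called by edgeR or DESeq2 or at an unadjusted p under 0.05. Their log2 fold changes were 0.49 ± 1.17 and -0.32 ± 0.20 (SE). G6pc2, the islet form, had at most 4 counts in a library and was not tested.

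Of 18 genes that bring lactate, alanine, serine, other amino acids and glycerol into the route, 3 rose and 1 fell, with a median of 0.12. The balance differed by tool, with 3 higher and 3 lower in limma-voom and 4 higher and 4 lower in DESeq2. Sds, the serine dehydratase that makes pyruvate from serine, fell from 326, 256 and 360 CPM to 62.2, 49.1 and 34.4 CPM, a log2 fold change of -2.69 ± 0.24 (SE) with an adjusted p of 0.00257. The genes that rose were Slc16a7, a monocarboxylate transporter, at 1.05 (adjusted p = 0.0124), Mpc1, a subunit of the mitochondrial pyruvate carrier, at 0.81 (adjusted p = 0.0132), and Gpd2, the mitochondrial glycerol phosphate dehydrogenase, at 0.91 (adjusted p = 0.0263). The calls of these 3 were lost when replicate 1 of either group or HFCF replicate 2 was left out, and that of Gpd2 also without OP replicate 2. Got1 and Sds passed the test under all 18 alternatives.

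Downstream of the receptor, 28 genes lead to protein kinase A and to the calcium branch of the signal, of which 0 rose and 2 fell, with a median of 0.047. Pde4c, a phosphodiesterase that breaks down cAMP, fell by 0.87 on the log2 scale (adjusted p = 0.0240), from 58.5, 57.6 and 42.2 CPM to 26.6, 27.4 and 32.3 CPM. Adcy9, an adenylyl cyclase that makes cAMP, fell by 1.14 (adjusted p = 0.0278), from 9.66, 11.2 and 12.0 CPM to 4.80, 3.68 and 6.39 CPM. Both calls were lost when replicate 1 or 2 of either group was left out, and that of Adcy9 also without HFCF replicate 3. At an unadjusted p under 0.05, 3 genes of this list were higher, DESeq2 called 1 higher, and limma-voom called 0 higher.

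Among 20 CREB partners, coactivators and their kinases beside Crtc2 and Sik1, 0 were called in either direction, with a median of 0.029. DESeq2 and limma-voom called 0 as well, and at an unadjusted p under 0.05 there were 0 higher and 1 lower. The smallest p belonged to Sik2, a second salt-inducible kinase of the liver, at -0.57 ± 0.21 (SE) with an adjusted p of 0.139, followed by Crem, a CREB relative, at 0.31 with an adjusted p of 0.306.

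Of 20 genes listed as regulators of gluconeogenesis, 1 rose and 2 fell, with a median of 0.24. Most are transcription factors and cofactors known at gluconeogenic promoters, but Trib1 and Trib3 are pseudokinases. Ppargc1a, the coactivator PGC-1 alpha, which CREB induces in fasting, fell from 23.7, 25.4 and 21.7 CPM to 4.62, 4.59 and 5.68 CPM, a log2 fold change of -2.25 ± 0.16 (SE) with an adjusted p of 0.00193. It passed the test under all 18 alternatives, and the OP libraries differed little among themselves. Trib3, a pseudokinase that binds AKT, fell from 14.3, 18.1 and 23.8 CPM to 4.72, 6.57 and 3.98 CPM (log2 fold change -1.88, adjusted p = 0.00812), a call lost without HFCF replicate 2 or OP replicate 1. Foxo1, the insulin-restrained activator of G6pc and Pck1, rose from 14.8, 14.1 and 17.0 CPM to 34.3, 22.8 and 24.5 CPM (0.83, adjusted p = 0.0380), a call lost without any HFCF library or without OP replicate 1.

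Of 12 tested genes known to be induced by cAMP through CREB, Ppargc1a among them, 0 rose and 3 fell, with a median of -0.64. No gene of this list was higher at an unadjusted p under 0.05, in DESeq2 or in limma-voom. Junb, an immediate early factor, fell from 43.2, 25.8 and 66.7 CPM to 10.3, 12.6 and 11.6 CPM (-1.97, adjusted p = 0.0127), a call lost without HFCF replicate 1 or OP replicate 1. Irs2, the insulin receptor substrate that fasting raises in liver, fell from 33.1, 23.6 and 19.8 CPM to 12.2, 13.3 and 10.2 CPM (-1.10, adjusted p = 0.0244), a call lost when replicate 1 of either group or HFCF replicate 2 was left out. Nr4a1, an orphan receptor induced early by cAMP, was at 0.29 with an adjusted p of 0.692.

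For CREBH, 7 genes of its family and of the proteases that release it had 0 calls in either direction, with a median of 0.036, 0 calls in DESeq2, and 0 higher and 1 lower at an unadjusted p under 0.05. The smallest p values belonged to Mbtps2, a protease that cleaves the membrane-bound factor, at -0.62 (adjusted p = 0.127) and to Atf6, a related membrane-bound factor, at 0.39 (adjusted p = 0.235). Of 10 genes known as CREBH targets, 2 rose and 0 fell, with a median of 0.34, and 0 fell in DESeq2 or limma-voom while 1 was lower at an unadjusted p under 0.05. Fabp2, a fatty acid binding protein, rose from 98.0, 97.8 and 109 CPM to 184, 176 and 157 CPM (0.76, adjusted p = 0.0176). Fgf21, the fasting hormone of the liver, rose from 6.41, 3.87 and 4.61 CPM to 16.4, 11.05 and 7.87 CPM (1.25, adjusted p = 0.0472). Both calls were lost when replicate 1 of either group or HFCF replicate 2 was left out, and that of Fgf21 also without HFCF replicate 3 or OP replicate 2.

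Over these 10 lists together, 133 of 135 genes beside the 10 followed here were tested, of which 9 rose and 8 fell, with a median of 0.096. Leaving out HFCF replicate 1 or HFCF replicate 2 gave 0 that rose and 4 that fell, and leaving out OP replicate 1 gave 0 and 3.

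**Figure D4:**
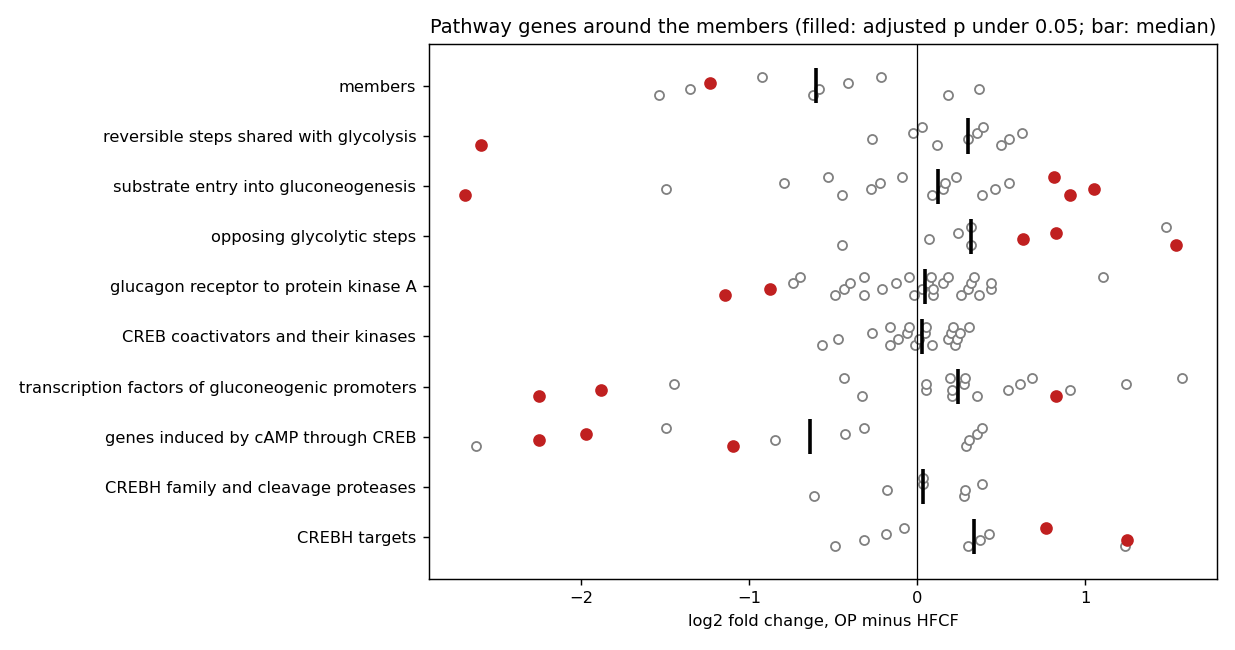
Log2 fold change of the 10 genes and of each tested gene in 9 of the pathway lists, OP relative to HFCF, with 1 point per gene, filled where the edgeR test called it, and a bar at each median. The genes for opposing glycolytic steps, among them the inhibitors Gckr, Pdk2 and Pdk4, lie mostly above 0 with a median of 0.32. Those induced by cAMP lie mostly below 0 with a median of -0.64.

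Pck1 and G6pc are expressed mainly in periportal hepatocytes, around the vessels that bring blood into the lobule. Of 14 other genes known for periportal expression, 7 fell and 1 rose, with a median of -0.96. The smallest p among them belonged to Sds, to Etnppl, an ethanolamine phosphate lyase (-3.10, adjusted p = 0.00266), to Asl, a urea cycle enzyme (-1.96, adjusted p = 0.00340), to Hal, the histidine ammonia lyase (-1.53, adjusted p = 0.00963), and to Sdsl, a relative of Sds (-1.38, adjusted p = 0.0213). Those genes fell, while 5 of the 14 lay above 0, among them Pigr, the gene that rose (0.78, adjusted p = 0.0236). In bulk tissue, fewer cells of a type and less RNA per cell cannot be told apart, and the part of this list in the values of Pck1 and G6pc was not tested.

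The libraries held 46459980 to 61918541 counts. As a check of the tissue, 9 of 10 listed hepatocyte markers were matched by symbol, and they summed to 43854 to 67129 CPM in HFCF and 72767 to 96462 CPM in OP. The listed symbol Tf had no match, which does not show that the gene was absent. Of these 9 genes 1 rose, Ttr, the thyroid hormone carrier transthyretin (1.13, adjusted p = 0.0190), and 1 fell, Cps1, a periportal urea cycle enzyme (-1.43, adjusted p = 0.0274), while DESeq2 called 4 higher and 1 lower. Alb, albumin, was at 0.92 with an adjusted p of 0.158. Markers of red cells summed to 941 to 1768 CPM in HFCF and 192 to 415 CPM in OP, with 4 of 6 lower, all of them globin genes. Of the other 2, Slc4a1 was at -2.41 (adjusted p = 0.187 in edgeR). Alas2, a heme enzyme, went the other way, higher in every OP library than in any HFCF library (0.33, adjusted p = 0.178), with an unadjusted p under 0.05. Macrophage markers summed to 263.1 to 344.6 CPM in HFCF and 152 to 252 CPM in OP. Of these 8, 0 were called by edgeR or limma-voom, 2 were lower in DESeq2 and 2 were lower at an unadjusted p under 0.05. Of the markers of endothelial cells, stellate cells, bile duct cells, adipocytes, lymphocytes and neutrophils, edgeR called 0. At an unadjusted p under 0.05, 1 adipocyte marker was higher, and 1 bile duct and 2 neutrophil markers were lower, and DESeq2 called 1 neutrophil marker lower. Glucagon itself and insulin mark the pancreas, and Gcg, Ins2, Prss2, Cpa1 and Cpb1 were at 0 in all libraries, while Cela1, an elastase also on that list, rose, with 7.71 to 11.6 CPM in HFCF and 20.2 to 25.1 CPM in OP. At 0 in all libraries were also the kidney genes Slc34a1 and Slc5a2. The part of blood or macrophage RNA in the values above was not tested.

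Sik1, which had the smallest p of the 10, was set against the 7237 tested genes with a mean of at least 10 CPM by Pearson's r of log2 CPM over the 6 libraries. The most alike were F11, a coagulation factor (r = 0.997), Pde9a, a cGMP phosphodiesterase (0.995), Irak2, an interleukin receptor kinase (0.993), Adnp, a nuclear homeobox protein (0.993), and Ric1, a Golgi trafficking factor (0.991). These values describe 6 libraries in 2 groups that share depth and group differences. Adnp was at 36.2, 18.2 and 7.25 CPM in HFCF and at 0.25, 0.49 and 0 CPM in OP, a log2 fold change of -6.30. It met the limit of 10 CPM only through HFCF, and its fall was far larger than that of Sik1.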

How the data were processed

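Poly(A) RNA of fresh mouse liver was sequenced as paired-end reads from libraries with dUTP in the second strand, per the labels' protocols. The submitters' processing notes name cutadapt 1.9, FastQC and build GRCm39. The sources used here give neither the aligner nor the counting tool or its strand setting. Deposited were the authors' whole-number counts per gene. In every library more genes had 4 counts than 3 or 5 (879 against 558 and 258 in HFCF replicate 1), so counting depth may be overstated, and counts divided by 4 were tried. Symbols were matched by Ensembl identifier (55141 of 55401).

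Samples were grouped by title, 3 HFCF and 3 OP. Genes were kept by filterByExpr, scaled by TMM and tested two-sided with edgeR 4.0.16 (quasi-likelihood, R 4.3.3), and p-values were adjusted by Benjamini-Hochberg across the 17394 genes tested, with a threshold of 0.05. SE is the absolute log2 difference over the root of F. CPM per kilobase used the longest protein-coding transcript of GENCODE M21. This annotation is of build GRCm38, so no coordinates of the count table are given. A gene at 0 could be present at up to 0.0472 to 0.0625 CPM (3 counts, counting error only). This limit would be higher if a read pair was worth several counts. Replicates of a group differed by more than sampling noise (chi-square per degree of freedom of at least 46.2).

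The genes and lists were chosen with earlier results of these data known. Named are the 10 genes and, in each pathway list, the genes that passed (at most 5, smallest p first) or, where fewer than 2 passed, the 2 with the smallest p. Ppargc1a, Foxo1, Nr4a1, Fgf21, Alb, Pigr, Gckr, Pdk2, Pdk4, Trib1, Alas2 and Slc4a1 are also named. A gene of the opposing steps is not reported here, and its list, counts and medians were computed without it. Pfkl was chosen as the counterpart of Fbp1, and the marker genes as listed. Alternatives were DESeq2 1.42.0, limma-voom (limma 3.58.1), other scalings and filters, a block for the replicate number, robust dispersion, counts divided by 4, mitochondrially encoded genes left out, the mitochondrial share as a covariate, other thresholds and each library left out. Figures were drawn with matplotlib 3.10.9.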

Additional observations from a re-analysis of the deposited data

How the results depend on the processing

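Of the 10 genes, 1 was called lower and 0 higher. The count of lower calls was 6 in DESeq2, 3 with a filter of 1 CPM in 3 libraries, 3 with counts divided by 4, 0 with the mitochondrial share as covariate, 5 at an adjusted p under 0.1, 0 at 0.01 and 0 to 2 when a library was left out. The count of higher calls was 0 under each alternative. Of the other pathway genes, 8 lower calls became 15 in DESeq2, 4 with the covariate, 13 at 0.1, 4 at 0.01 and 3 to 12 when a library was left out. Their 9 higher calls became 14 in DESeq2, 5 without a low-count filter, 1 with the covariate, 0 at 0.01 and 0 to 12 when a library was left out. Over all genes, leaving out a library gave 34 to 655 higher and 54 to 655 lower calls. The share of all tested genes called lower was 3.47% in the main fit and 7.86% in DESeq2. It was 6.13% with the filter of 1 CPM, 5.87% with counts divided by 4 and 0.558% with the covariate. Higher calls over all genes were 567 in the main fit, 1202 in DESeq2, 298 without a low-count filter and 110 with the covariate. The cause of these changes was not tested.

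With the replicate number as a block, 2 of the 10 genes were lower, and 5 of the pathway genes were lower and 0 higher. Over all genes the block left 87 higher and 93 lower calls, against 567 and 603 without it. The deviations of same-numbered libraries correlated at 0.0229, -0.126 and -0.164, and those of differently numbered libraries at -0.152 to 0.248. The labels do not tell what the number stands for. So few libraries cannot show whether same-numbered samples share a litter, cage or day. Pck1, which had the most counts of the 10 genes over all libraries, had the widest SE, 0.46.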

Other observations

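Clock genes set the daily rhythm of liver genes, Pck1 and G6pc among them, and the labels give no time of day for the samples. Of 15 clock genes and clock outputs, 1 rose and 2 fell, with a median log2 fold change of -0.36. Per2, a repressor of the clock, rose from 28.9, 33.2 and 31.7 CPM in HFCF to 110.0, 57.9 and 119 CPM in OP (1.61, adjusted p = 0.0131 in edgeR). Cry2, its partner, fell by 0.90 on the log2 scale (adjusted p = 0.0373), and Nr1d1, the repressor REV-ERB alpha, fell by 0.79 (adjusted p = 0.0488). The part of the time of sampling in the values of the gluconeogenic genes was not tested.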
